A study of Drosophila melanogaster with 3 samples.

Results

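The regions described here are the promoter peaks of genes that follow close behind a neighbour on the same strand of the *Drosophila melanogaster* genome. A peak was a member when its summit lay within 500 bp of the most 5' transcription start site (TSS) of a protein-coding gene that met 2 conditions. No protein-coding gene on the opposite strand had its TSS within 1000 bp, and the nearest protein-coding gene lying wholly upstream was on the same strand, with its 3' end no more than 1000 bp away. Such genes are called tandem genes here. The annotation alone decided which genes they are, and the measured summit position, within 500 bp of the TSS, decided which peaks are members. Of the peaks in the authors' reproducible set, 1299 (14.5%) were members and 7653 were not. They were 26.8% of the 4845 peaks that lay at the most 5' TSS of any protein-coding gene, and they belonged to 1138 of the 3545 tandem genes.

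The data came from ChIP-seq, in which DNA bound to a chosen protein is recovered with an antibody and sequenced. All 3 libraries were biological replicates of a single group. The embryos came from a transgenic line with stable expression of CG12659 carrying GFP at its C terminus, were of both sexes, 0 to 24 h old and used whole, and so mixed cell types and stages. Their chromatin was sonicated to 200 to 800 bp and recovered with an anti-GFP antibody according to the sample descriptions, while the antibody field names CG12659. The sources used here do not name the promoter that drives the transgene, and the control alignment was not analysed here. The deposited files were lists of enriched regions on the dm6 build, without read counts, so the depth behind each value was unknown. The reproducible set had been kept by an irreproducible discovery rate step, and its members are called IDR peaks. From each single replicate, as many regions of highest signal were used as the IDR set holds. The signal was computed by the authors' peak caller, its scale is not shared between lists, and values were compared only inside a list. Intervals of shares are exact at 95% and cover counting error only.

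CG12659 is related to INO80C, a small subunit of INO80, an ATP-driven complex that slides and reshapes nucleosomes and works at gene promoters. In a compact genome many genes lie head to tail, so that the promoter of a gene sits directly behind the polyadenylation site of the gene before it. Some head-to-tail neighbours are copies made by duplication and encode related proteins, called paralogs. Fly core promoters also differ in kind. Promoters of broadly used genes often hold the DNA replication-related element (DRE) or the elements known as Motif 1, Motif 6 and Motif 7, whereas promoters of genes used in few tissues more often hold a TATA box or an Initiator.

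The stretch of DNA between the genes of a tandem pair is short, and it is printed for a few members to show the DNA just before their TSS. Coordinates are dm6, with sequence from the RefSeq copy of the release 6 genome. Each gap is given 5' to 3' on the strand of the gene with the peak, starting just after the 3' end of the upstream gene and stopping at the base before the TSS. Capitals mark matches to the letters searched, on either strand, and positions count from the TSS. The DRE was searched as TATCGATA and Motif 1 as GGTCACAC. Motif 6 was searched as GTATNTTT and Motif 7 as CATCNCT, where N is any base. The E-box was read as CAGCTG, the GAGA repeat as GAGAGAG, the TATA box as TATAAA and the Initiator as TCAGT. The core bound by the insulator protein BEAF was read as CGATA, the poly(A) signal as AATAAA and the core bound by Pho as GCCAT. The DRE contains the BEAF core, so each DRE match is also a BEAF match. Initiator, BEAF and Pho letters are left in lower case because they are short and frequent. Gaps on a chromosome arm named under the processing of the data were not printed, which left out strong members such as GstE13. Among the other arms, the first 8 gaps are those of the members of highest signal with a gap of 60 to 300 bases. The 8 gaps are arranged from the strongest down. They lie between ash1 and CG14100 (3L:19590525-19590772, minus strand), vrs and CG18549 (3R:12449047-12449295, plus strand), Nup358 and CG11857 (3R:25258673-25258897, plus strand), and Kap-alpha3 and CG9399 (3R:9574212-9574483, minus strand). The others lie between RabX5 and RpL23A (3L:1668655-1668900, minus strand), scpr-C and CG17726 (3R:11226682-11226761, plus strand), CG16957 and RpL24 (2L:13395132-13395359, minus strand), and CG9636 and Ada2b (3R:8240516-8240746, minus strand).
CG14100: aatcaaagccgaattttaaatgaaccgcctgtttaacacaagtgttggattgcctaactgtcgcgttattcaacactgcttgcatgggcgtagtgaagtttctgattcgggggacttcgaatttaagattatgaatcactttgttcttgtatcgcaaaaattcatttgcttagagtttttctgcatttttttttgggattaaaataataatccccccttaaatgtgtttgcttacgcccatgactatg
CG18549: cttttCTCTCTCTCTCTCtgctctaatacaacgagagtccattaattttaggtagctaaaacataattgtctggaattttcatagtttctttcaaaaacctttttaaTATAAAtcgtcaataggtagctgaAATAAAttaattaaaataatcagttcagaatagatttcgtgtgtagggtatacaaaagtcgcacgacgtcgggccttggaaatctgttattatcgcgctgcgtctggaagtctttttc
CG11857: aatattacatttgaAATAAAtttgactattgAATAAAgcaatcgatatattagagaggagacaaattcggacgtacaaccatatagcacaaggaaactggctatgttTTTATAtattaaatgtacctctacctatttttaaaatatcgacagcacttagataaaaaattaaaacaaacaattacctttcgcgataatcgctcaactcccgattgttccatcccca
CG9399: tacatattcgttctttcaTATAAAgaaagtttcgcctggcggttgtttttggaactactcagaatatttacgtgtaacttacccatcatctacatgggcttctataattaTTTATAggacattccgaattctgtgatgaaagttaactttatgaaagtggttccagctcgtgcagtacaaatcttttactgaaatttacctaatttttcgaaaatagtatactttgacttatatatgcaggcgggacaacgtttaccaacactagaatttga
RpL23A: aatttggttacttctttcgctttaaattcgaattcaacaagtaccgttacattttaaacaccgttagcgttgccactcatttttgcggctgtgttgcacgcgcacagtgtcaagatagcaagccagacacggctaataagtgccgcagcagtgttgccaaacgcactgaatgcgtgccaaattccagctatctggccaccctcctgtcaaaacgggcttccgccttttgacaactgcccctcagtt
CG17726: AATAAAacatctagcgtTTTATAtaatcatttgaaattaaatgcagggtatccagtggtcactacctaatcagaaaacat
RpL24: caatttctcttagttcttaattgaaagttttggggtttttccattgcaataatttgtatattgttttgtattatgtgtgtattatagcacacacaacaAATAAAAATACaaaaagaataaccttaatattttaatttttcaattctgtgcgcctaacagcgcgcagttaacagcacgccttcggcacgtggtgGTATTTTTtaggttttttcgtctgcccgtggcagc
Ada2b: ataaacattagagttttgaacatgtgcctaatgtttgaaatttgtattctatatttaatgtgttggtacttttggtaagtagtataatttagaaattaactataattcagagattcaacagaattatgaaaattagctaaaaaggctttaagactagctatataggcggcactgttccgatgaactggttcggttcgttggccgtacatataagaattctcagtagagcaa

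The gaps before CG14100, before the ribosomal protein gene RpL23A and before Ada2b, which encodes an adaptor of the histone acetyltransferase complex SAGA, held none of the capitalised motifs. The peak of Ada2b did not overlap its gap, with the summit at 367 bp from the TSS, whereas the peaks of the other 7 did. The gap before CG18549 held 4 overlapping GAGA matches near its start, TATA letters at -142 and a poly(A) signal at -118. TATA letters stood at -118 before CG11857, at -63 before CG17726 and at -254 and -162 before CG9399. Poly(A) signals stood at -211 and -194 before CG11857 and at -80, the first base of the gap, before CG17726. The gap of RpL24 held Motif 6 at -35 and at -127, the second overlapping a poly(A) signal at -130.

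The next gaps were chosen for holding Motif 1 or a DRE, again without the arm whose gaps were not printed. They are the 3 of highest signal for each among members found in all replicates with a gap of 60 to 150 bases. Motif 1 stood at -53 before beta-PheRS (3R:24252680-24252825, minus strand, upstream gene jar), at -21 before bc10 (3L:5565104-5565230, plus strand, upstream gene Sras) and at -68 before Pp1alpha-96A (3R:24518129-24518269, plus strand, upstream gene DZIP1). Before bc10 the Motif 1 match shares its first base with an E-box. The DRE stood at -19 before CG2258 (X:8102096-8102180, minus strand, upstream gene Gclc), at -16 before Atxn7 (2L:2375698-2375840, plus strand, upstream gene CG15390) and at -20 before wkd (3R:11581477-11581575, plus strand, upstream gene CG5342). The other capitals before beta-PheRS and bc10 are poly(A) signals at -107 and -119. The summits of beta-PheRS, bc10 and Pp1alpha-96A lay at -70, 24 and -39 bp from the TSS, and those of Atxn7 and wkd at 20 and 6 bp, while that of CG2258 lay at 416 bp and its region did not reach the gap.
beta-PheRS: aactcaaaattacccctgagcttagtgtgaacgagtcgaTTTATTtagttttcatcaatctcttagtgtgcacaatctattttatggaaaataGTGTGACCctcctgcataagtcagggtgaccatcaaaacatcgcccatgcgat
bc10: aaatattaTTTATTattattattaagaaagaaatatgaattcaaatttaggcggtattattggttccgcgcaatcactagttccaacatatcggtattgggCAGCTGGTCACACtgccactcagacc
Pp1alpha-96A: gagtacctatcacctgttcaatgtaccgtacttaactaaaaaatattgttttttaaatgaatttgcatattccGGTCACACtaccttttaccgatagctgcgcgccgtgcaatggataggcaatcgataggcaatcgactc
CG2258: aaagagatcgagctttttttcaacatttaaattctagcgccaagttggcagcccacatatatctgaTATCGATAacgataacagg
Atxn7: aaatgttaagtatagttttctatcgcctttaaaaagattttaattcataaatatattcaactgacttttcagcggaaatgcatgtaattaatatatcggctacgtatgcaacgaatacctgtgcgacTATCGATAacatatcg
wkd: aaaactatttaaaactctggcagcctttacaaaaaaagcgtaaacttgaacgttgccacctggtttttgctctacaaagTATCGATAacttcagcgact

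For contrast, the gap between GstD3 and GstD4 (3R:12373814-12374099, plus strand) comes from a run of duplicated glutathione S-transferase genes without a single IDR peak. It held TATA letters at -172.
GstD4: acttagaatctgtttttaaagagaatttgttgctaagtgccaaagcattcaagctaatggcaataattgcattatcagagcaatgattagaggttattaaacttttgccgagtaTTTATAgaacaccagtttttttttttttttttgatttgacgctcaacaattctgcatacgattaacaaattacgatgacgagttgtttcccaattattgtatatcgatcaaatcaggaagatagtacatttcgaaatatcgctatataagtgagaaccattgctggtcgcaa

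Tandem genes carried a peak more often than isolated genes and less often than divergent genes. Of the 13945 genes that code for protein, 40.3% carried an IDR peak at the most 5' TSS. The share was 32.1% (30.6 to 33.7) of tandem genes. It was 69.5% (68.2 to 70.8) of the 4927 divergent genes, which have a TSS of the opposite strand within 1000 bp. It was 20.3% (19.1 to 21.6) of the 3979 isolated genes, which have neither kind of close neighbour and no TSS inside another gene. In the replicate lists, the share of tandem genes with a region was 33.9% in replicate 1, 31.5% in replicate 2 and 29.0% in replicate 3, against 20.7%, 19.6% and 19.1% of isolated genes. Every tandem value lay above every isolated value. The divergent values, 70.0%, 67.2% and 67.7% in the same order, lay far above both.

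The odds of a peak at a tandem gene were 1.90 times those at an isolated gene (1.71 to 2.11), by a logistic fit across all protein-coding genes with chromosome arm as a term (n = 13945 genes, adjusted p = 1.77e-32, Benjamini-Hochberg over 10 contrasts). They were 0.208 times those at a divergent gene (0.189 to 0.228, n = 13945 genes, adjusted p = 6.40e-239). These fits treat genes or peaks as independent, and their p-values do not measure the spread between replicates. A peak counted for every gene whose TSS lay within 500 bp of its summit. The same peak could therefore count for both genes of a divergent pair. There were 2342 divergent peaks for 3424 divergent genes with a peak, against 1299 members for 1138 tandem genes with a peak. The part of shared peaks in the higher share and odds of divergent genes was not tested. Over the replicates the tandem share exceeded the isolated share by 11.7 ± 1.72 percentage points (SD, n = 3), in 3 of 3. The two-sided exact sign-flip permutation test over 3 replicates gave 0.25, the smallest p it allows, and the same holds for every other replicate comparison in which all 3 replicates had the same sign. The labels call the replicates biological and say no more of how they were collected.

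**Figure D1:**
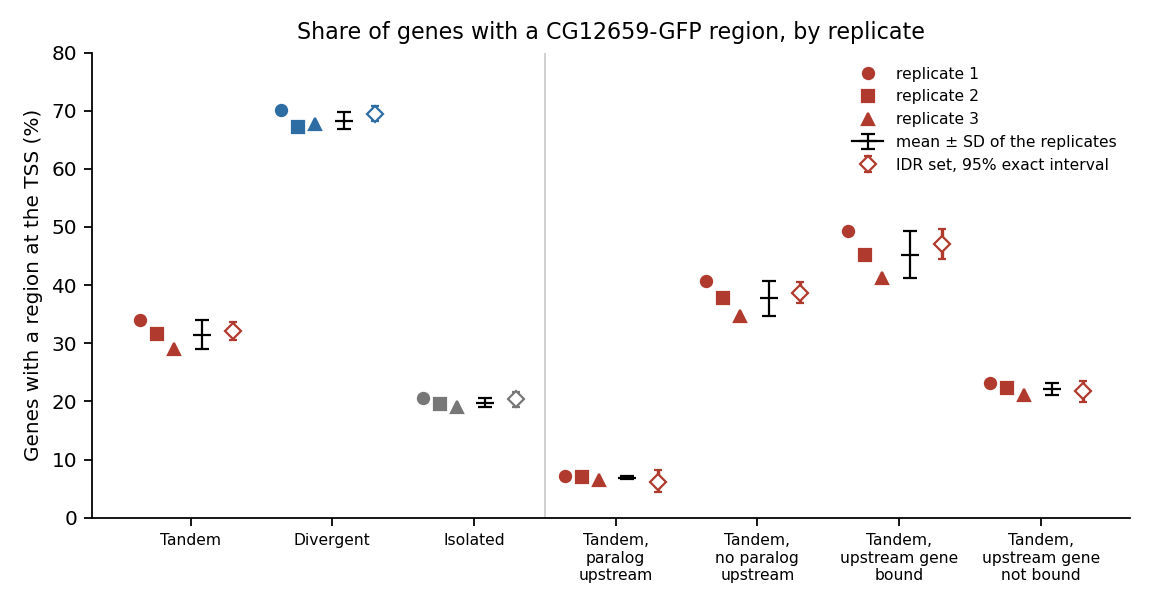
Share of genes with a region at the most 5' TSS (percent) for tandem, divergent and isolated genes (left of the line) and for subsets of tandem genes (right of it). Filled symbols are replicates 1 to 3, black bars their mean ± SD, and open diamonds the IDR set with its 95% exact interval. Tandem genes sit between 29.0% and 33.9%, divergent genes between 67.2% and 70.0%, isolated genes between 19.1% and 20.7%, and tandem genes behind a paralog between 6.56% and 7.11%.

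The following shares are descriptions, and their differences were not tested. Isolated genes had a peak in 17.6% of cases where the nearest upstream gene was on the same strand and in 22.8% where it was on the other strand. Tandem genes whose own TSS lay inside another gene had a peak in 17.6% of 374 cases, against 33.8% of the other 3171. By chromosome arm the tandem share was 40.4% on X (203 of 502 genes) and 28.5% to 34.3% on 2L, 2R, 3L and 3R, while the isolated share on X was 20.7%, against 18.6% to 22.8% on those 4 arms. On the small chromosome 4, 3 of 4 tandem genes had a peak, against 28 of 54 isolated genes (51.9%).

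Tandem genes behind a paralog seldom had a peak. Of the 717 tandem genes whose upstream neighbour encodes a paralog, 44 (6.14%, 4.49 to 8.15) had a peak. Of the 2828 others, 1094 (38.7%, 36.9 to 40.5) did. Paralogs were pairs of proteins aligned by blastp with an E value of 1e-05 or lower over 50% or more of the shorter protein. In the replicate lists the share was 7.11%, 6.97% and 6.56% of genes behind a paralog and 40.7%, 37.8% and 34.7% of the other genes, so the groups did not overlap. The odds ratio was 0.107 (0.0778 to 0.146, adjusted p = 1.25e-43 by the logistic fit across all tandem pairs, n = 3545). With paralogous pairs left out, an alternative chosen after seeing the data, the odds of a peak at tandem over isolated genes became 2.53.

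Reads from near-identical copies can map to more than 1 place, and the sources used here do not say how such reads were treated, so the part of such reads in the difference was not tested. The share by identity between the proteins is given as a description. It was 3.03% of 66 pairs under 30% identity, 7.64% of 157 pairs from 30% to 40%, 5.33% of 169 pairs from 40% to 50%, and 6.87% of 131 pairs from 50% to 60%. It was 4.86% of 144 pairs from 60% to 80% identity, 7.41% (0.910 to 24.3) of 27 pairs from 80% to 95%, and 13% (2.78 to 33.6) of 23 pairs above that. The intervals at these highest levels are wide because the pairs are few. Members behind a paralog had a signal close to that of the others: their median signal was 355 over 52 peaks, and that of the other members was 365.

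The strongest members behind a paralog were at genes of varied function. Rdh1, which encodes a retinol dehydrogenase, had a signal of 1087 behind CG2065, with 77.6% identity between the proteins. GILT2, which encodes a lysosomal thiol reductase, had 1065 behind GILT3, with 37.9% identity. The scavenger receptor gene pes had 945 behind CG7227, CG2811 had 941 behind Tina-1, and CG8306 had 861 behind CG8303, each at an identity of 31.0% to 44.4%. All 5 were among the highest regions of every replicate.

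The share of tandem genes with a peak also varied with the distance to the upstream gene, and not in 1 direction. Of tandem genes 1 to 100 bp behind the upstream 3' end 16.4% (12.96 to 20.4) had a peak, and 32.4% did at 101 to 200 bp. The share was highest at 201 to 300 bp with 40.4% (36.6 to 44.4) and at 301 to 400 bp with 39.5%, and it was 35% at 401 to 600 bp and 24.8% at 601 to 1000 bp. Isolated genes with a same-strand neighbour had 20.9% at 1001 to 2000 bp, 18.8% at 2001 to 5000 bp, 14.3% at 5001 to 20000 bp and 15.3% beyond. Each replicate showed the low value at the shortest distance, with 16.9%, 16.2% and 14.2% at 1 to 100 bp and 41.8%, 37.9% and 34.5% at 201 to 300 bp.

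The shares by distance are also given by paralogy, as a description with no test. Among genes behind a paralog the shares in the 6 distance classes lay between 2.02% and 10.5%. Among the other tandem genes they were 21.0%, 37.8%, 46.9%, 46.7%, 43.9% and 30.1%, from the shortest to the longest distance. The odds of a peak rose 1.11 times per doubling of the distance within 1000 bp (1.04 to 1.17, adjusted p = 0.00115 by the logistic fit across tandem pairs, n = 3545). That slope averages over the increase at short distances and the decrease at long ones, and with tandem genes defined up to 2000 bp it turned to 0.980 times per doubling and was no longer past the threshold of 0.05.

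**Figure D2:**
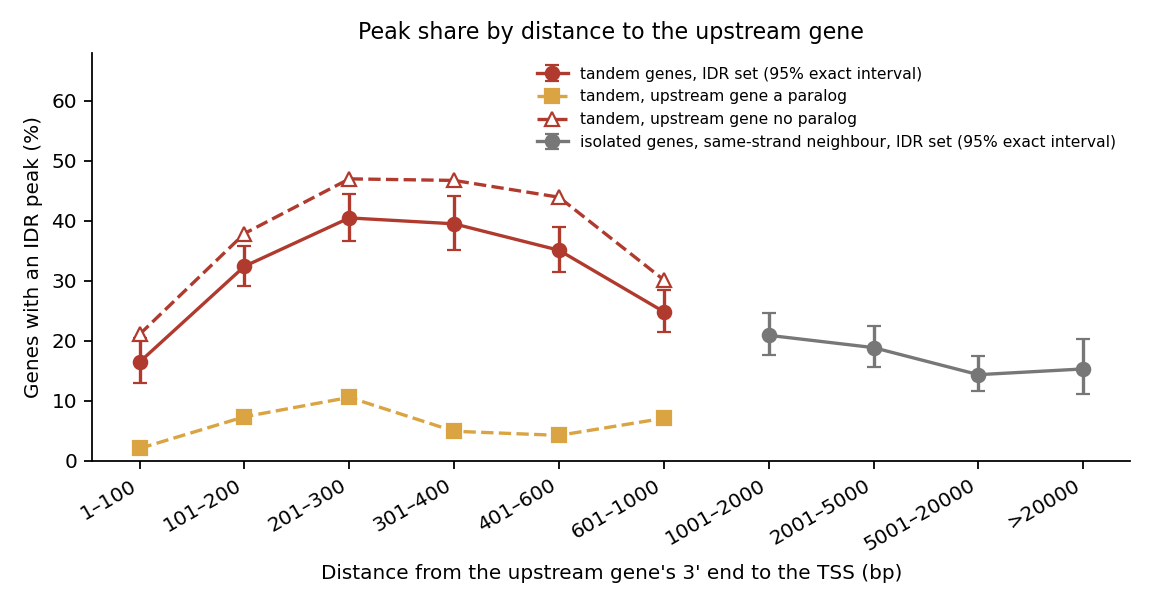
Share of genes with an IDR peak (percent) by distance from the upstream gene's 3' end to the TSS (bp), for tandem genes (red circles), for tandem genes behind a paralog (yellow squares) or behind another gene (open triangles), and for isolated genes with a same-strand neighbour (grey). Bars are 95% exact intervals. The tandem share is 16.4% at 1 to 100 bp, 40.4% at 201 to 300 bp and 24.8% at 601 to 1000 bp, and paralogs stay at or under 10.5%.

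The 5 members at the shortest distances ranged widely in signal. Grx1, a glutaredoxin gene, starts 11 bp behind Dysb, which encodes a synaptic and lysosome-related organelle protein. It had a signal of 526, with 267, 128 and 113 in replicates 1, 2 and 3 and the summit 2 bp past its TSS. The transcription factor gene dmrt11E starts 12 bp behind Syt12 with a signal of 232, and CG32795 starts 32 bp behind w, the eye pigment transporter gene white, with 303. The peak of l(2)k09913, 13 bp behind PPO3, had 342. At CG12204, 19 bp behind ksh, the peak of 238 was shared with the upstream gene and also lay at the TSS of a divergent gene.

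Peaks at a tandem gene went with peaks at its upstream neighbour. Of the 3545 pairs, 684 had an IDR peak at both genes, 454 only at the downstream gene, 770 only at the upstream gene and 1637 at neither. The downstream gene had a peak in 47.0% (44.5 to 49.6) of pairs whose upstream gene had one, and in 21.7% (19.96 to 23.5) of pairs whose upstream gene had none. The replicate lists gave 49.3%, 45.2% and 41.2% behind a gene with a region, against 23.1%, 22.3% and 21.1% behind a gene without one. The groups did not overlap. The odds ratio was 3.18 (2.74 to 3.68, n = 3545 pairs, adjusted p = 5.71e-53). Only 2 of the 684 pairs shared a single peak.

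The difference between pairs held within each kind of upstream gene. Behind upstream genes that were themselves tandem the shares were 46.3% with a peak upstream and 20.6% without. Behind divergent upstream genes they were 48.9% and 26.7%, and behind isolated ones 39.8% and 21.7%. Without paralogous pairs they were 49.1% and 29.1%, an odds ratio of 2.35. In the 684 pairs with a peak at both, the downstream gene's highest signal was above the upstream gene's in 289 (42.3%), and the median ratio of downstream to upstream signal was 0.853 (quartiles 0.530 and 1.42).

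The longest head-to-tail runs had lower shares, given as a description with no test. A tandem gene had a peak in 34.8% (32.5 to 37.2) of cases in runs of 2 genes and 33.2% (30.2 to 36.2) in runs of 3, with overlapping intervals. It had one in 28.9% in runs of 4 or 5 and 20.1% (15.3 to 25.5) in runs of 6 or more. These shares were not split by paralogy, and the part of paralogs in them was not tested. The longest run had 12 genes, the Stellate array headed by Ste:CG33236, and none of its 11 tandem genes had a peak. These genes are near-identical copies. The run of 8 tandem genes that includes CHKov1 and CHKov2, and the run of 8 with Nepl13, Nepl14 and Nepl15, which encode neprilysin-like peptidases, had 0 as well. In the GstD run behind GstD2, to which the printed gap of GstD4 belongs, 0 of 6 tandem genes had a peak.

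Other long runs carried several peaks. The run behind Asph had a peak at 4 of its 7 tandem genes, the lysosomal transporter gene spin, the aspartate aminotransferase gene Got1, CG30094 and the synthetase gene CysRS. The run behind CG3746, which includes RpS24, also had 4 of 7. The longest run in which every tandem gene had a peak had 5 genes, with Rchy1, HemK1, mmy and CG9536 behind Sec61alpha, the gene of the protein-conducting channel of the endoplasmic reticulum. Runs of 4 with a peak at every tandem gene included Atxn7, Eogt and PIG-Wa behind CG15390, and Mo25, Abl and Baldspot behind Galphaf.

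Member summits lay closer to the TSS than those of isolated genes. The median summit of the members was at -34 bp (quartiles -97 and 30), against -73 bp (quartiles -225.5 and 34) for the 951 peaks of isolated genes. Of the member summits 61.9% lay within 100 bp of the TSS, against 38.9% of isolated ones. The replicate lists gave 62.4%, 57.7% and 56.7% for tandem peaks, against 41.5%, 37.5% and 35.8% for isolated peaks, with no overlap. The odds ratio was 2.60 (2.19 to 3.09, adjusted p = 8.86e-27 by a logistic fit across these peaks, n = 2250), in a contrast added after the values were seen. Both groups had been chosen by summit position, within 500 bp of the TSS. This contrast and that of summits upstream of the TSS therefore describe only positions inside that limit.

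Most summits fell in the gap itself. Of the 1299 summits, 787 (60.6%) lay between the upstream 3' end and the TSS, 44 (3.39%) in the upstream gene and 468 (36%) at or past the TSS. The median distance from summit to upstream 3' end was 290.0 bp (quartiles 168 and 462), a value that the limit of 500 bp around the TSS partly sets. With increasing distance between the genes the median summit position moved upstream, from 10 bp at distances of 1 to 100 bp through -8, -35, -38 and -50 bp to -85 bp at 601 to 1000 bp.

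Summits upstream of the TSS made up 64.0% of the members and 67.4% of isolated peaks. The replicate lists gave 62.6%, 62.2% and 72.0%, against 65.5%, 67.1% and 76.7%. The odds ratio was 0.817 (0.683 to 0.978, n = 2250 peaks, adjusted p = 0.0347). This call was not stable. It was lost with 1 region per merged stretch (odds ratio 0.834), without the arm term (0.859) and with distances up to 2000 bp (0.930), and with summits within 200 bp of the TSS the odds ratio was 1.18, not past the threshold.

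**Figure D3:**
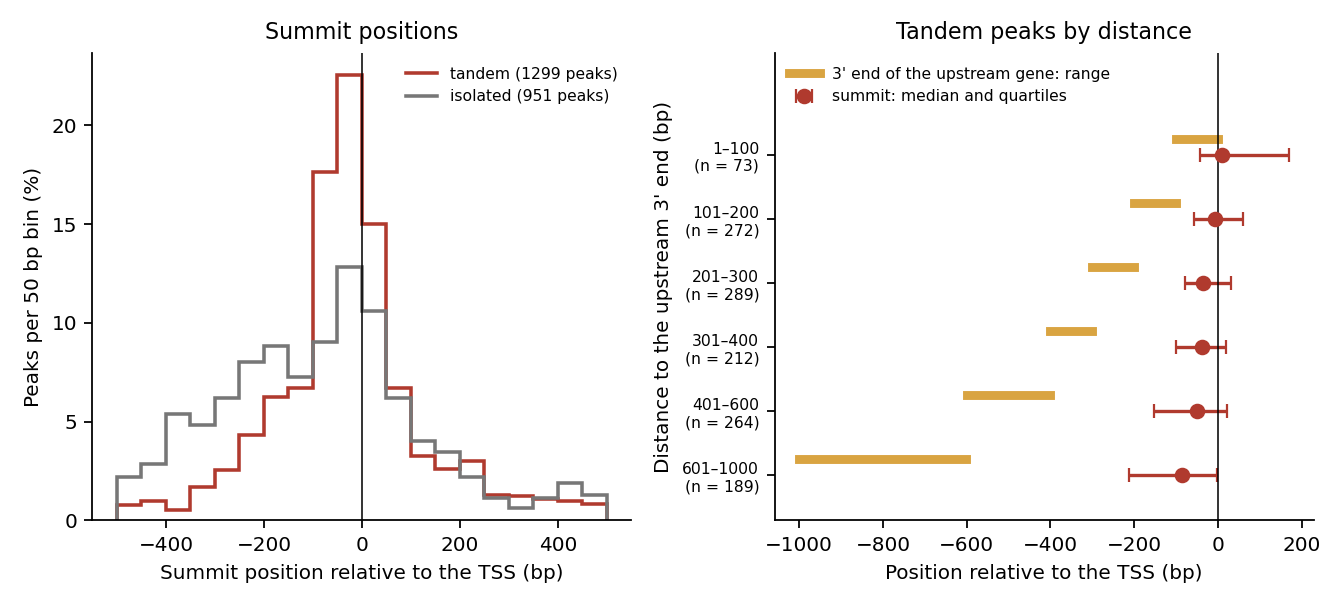
Left: summit position relative to the TSS (bp) of 1299 tandem and 951 isolated peaks, as percent of peaks per bin of 50 bp. Right: median and quartiles of the summit position of tandem peaks (red) in 6 classes of distance to the upstream 3' end, with the range of that 3' end in yellow. Of the tandem summits 61.9% lie within 100 bp of the TSS, against 38.9% of isolated ones, and at each distance over 100 bp the quartiles of the summits stay clear of the 3' ends.

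A 3' end away from promoters seldom had a summit near it. Of 3545 upstream 3' ends of tandem pairs 27.1% had an IDR summit within 500 bp, against 1.95% of the 6723 gene 3' ends that lay over 1000 bp from any annotated TSS. By definition the tandem 3' ends lie within 1000 bp of a TSS, and summits of members count among theirs. The difference between these shares therefore follows in part from the definitions. The regions are wider than the summits, and 434 members (33.4%) overlapped the upstream gene. The strongest summits within an upstream gene were at CG17726 (signal 1714, 19 bp before the 3' end of scpr-C), Gorab, a golgin gene (998, in frc), chas (980.1, in CG8188), pes (945, in CG7227) and CG46385 (835, in cn).

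Members were weaker than divergent peaks and did not differ from isolated ones past the threshold. The median signal in the IDR set was 365 for members (quartiles 265 and 528), 426 for divergent peaks and 357 for isolated peaks. The fitted ratio was 0.867 against divergent peaks (0.836 to 0.900, adjusted p = 6.04e-14) and 0.967 against isolated peaks (0.924 to 1.01, adjusted p = 0.156), from a linear fit of log2 signal across all peaks at a most 5' TSS (n = 4845). In the replicate lists the medians of tandem peaks were 166, 112 and 88.1, against 189, 133 and 108 for divergent peaks and 158, 118 and 90.3 for isolated peaks. Tandem medians were below divergent medians in 3 of 3 replicates. They were below isolated medians in 2 of 3 (exact sign-flip permutation p = 1). The ratio to isolated peaks passed the threshold without replicate 1, at 0.915, and among the stronger peaks, at 0.899.

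Members were spread over the whole range of signal. They made up 13.8%, 16.8%, 15.5% and 12% of the IDR set in 4 equal parts from the highest to the lowest signal, and 7 of its 100 highest peaks. Among the highest regions of all 3 replicates were 1055 members (81.2%), against 78.4% of isolated and 86.7% of divergent peaks. The odds ratio of tandem to isolated was 1.21 (0.985 to 1.5, n = 2250 peaks, adjusted p = 0.0766), and without replicate 3 it was 1.46 and past the threshold. The IDR set was itself chosen for being reproducible between these replicates. The 1299 members formed 1123 merged stretches, 176 of which held more than 1 member. Members of 1 stretch could be matched to the same region of a replicate, and so count as found through a stronger neighbour. The summits at Rme-8 with signals of 1540 and 743, for example, were both matched to regions of 507, 537 and 494 in replicates 1, 2 and 3.

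The strongest members lay at genes of unlike function. The highest was at CG14100, an uncharacterised gene 249 bp behind ash1, which encodes a histone methyltransferase of the trithorax group. It had a signal of 5705 in the IDR set, at rank 3, and 2221, 1933 and 1570.3 in replicates 1, 2 and 3, at ranks 4, 3 and 2. Its summit lay at -103 bp, and ash1 had a peak of its own with a signal of 600.3. CG18549 followed with 3481 (1475, 1250.1 and 785 in the replicates), 250 bp behind vrs, which had no peak at its most 5' TSS. Tina-1, 979 bp behind CG15861, had 3303 (1314, 1131 and 823), and CG1635, 429 bp behind the kinetochore gene rod, had 3035 (1252, 1084 and 697). These 4 were within the 50 highest regions of every replicate.

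The next members by signal also stood behind genes of varied function. GstE13, a glutathione S-transferase gene 125 bp behind Su(var)2-10, which encodes a SUMO ligase, had 2396 (967, 784 and 641 in the replicates). The circadian deadenylase gene cu, also called curled, had 2325 behind CG18577, and Hpf1, which encodes a cofactor of poly(ADP-ribose) polymerase, had 2199 behind the proteasome gene Rpn5. CG3009 had 2069 behind fzr, which encodes an activator of the anaphase-promoting complex. CG11857, whose gap is printed above, had 2017 behind the nucleoporin gene Nup358, and CG9399 had 1981 behind the importin gene Kap-alpha3, which carried a peak of 1887 itself.

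The rest of the 20 strongest had signals of 1420 to 1834. Among them were RpL23A (1745; 791, 505 and 444 in the replicates), the Y-box protein gene yps (1565), Rme-8, a gene of endosomal trafficking (1540), the transporter gene Oatp30B (1471) and the carbonic anhydrase gene CAH3 (1420). The rank of yps was 178, 258 and 260 in replicates 1, 2 and 3. Of the 20 upstream genes 14 had a peak at their own TSS. Among all 1299 members, the upstream gene had one for 782.

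**Figure D4:**
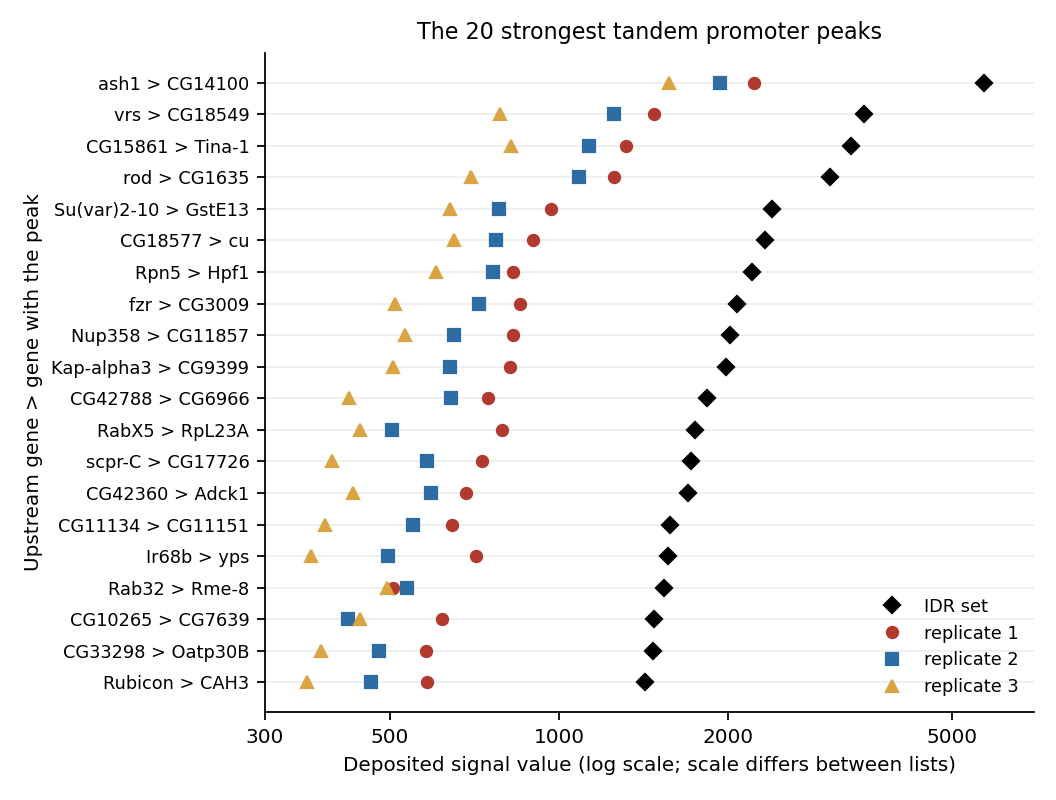
Deposited signal (log axis) of the 20 strongest tandem promoter peaks that were among the highest regions of all 3 replicates, in the IDR set (black) and in replicates 1 to 3 (red, blue, yellow). The upstream gene is named before the gene with the peak. Scales differ between lists, so only the order within a colour can be compared. CG14100 is the highest of the 20 in each list.

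At the other end, the members of lowest signal were close to the limit of the IDR set and varied between replicates. They were a further summit at CAH3 (185), pasha, which encodes the partner of the microRNA-processing enzyme Drosha (186), Gip (186), CG15760 (186) and the nonsense-mediated decay gene Smg6 (186). Neither Gip nor Smg6 had a matching region in replicate 3, and pasha ranked 7223, 12873 and 12353 in the 3 replicates. The members just within 500 bp of a TSS were CG11151 (498 bp, a further peak of signal 544) and CG7115 (497 bp, 189). The peaks just past that limit were at CG6770 (-509 bp, 311) and CG14480 (509 bp, 278). The members just within 1000 bp of the upstream gene were the insulin receptor gene InR (983 bp behind E2f1, signal 754) and TMEM216 (980 bp, 604). Just past it were amon, which encodes a prohormone convertase (1006 bp behind CG6425, signal 2259.8), and CG7627 (1008 bp behind RpS13, 526).

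Cytosolic ribosomal protein genes had the highest share of tandem genes with a peak among 23 lists of gene families matched by symbol. These counts are descriptions, set beside the 32.1% of all tandem genes. Of 20 tandem genes of cytosolic ribosomal proteins 19 had a peak. Of all 93 genes on that list, tandem or not, 87 had one, a similar share. Among the tandem genes RpL23A (1745), RpL11 (1387), RpS4 (1182) and RpL24 (1173) were strongest, and RpL37-2 was the one without a peak. For 8 of the 19 the upstream gene had no peak: RpL23A, RpL24, RpS29, RpL37-1, RpS2, RpS24, RpL6 and RpS9 stood behind genes such as topi, Muc30E and Ugt317A1 that lacked one. Among all 1138 tandem genes with a peak the upstream gene lacked one for 454, a similar share. RpS14b stands behind its own near-identical copy RpS14a, and its peak of 849 and that of RpS14a, 732, are uncertain, since the sources used here do not say how reads from such copies were counted.

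A further 6 lists of broadly used genes with 6 or more tandem genes were above the share of all tandem genes. Mitochondrial ribosomal protein genes had 8 of 13, led by mRpL10 (673), and oxidative phosphorylation genes had 14 of 21, led by UQCR-14 of complex III (761) and the complex I gene ND-B22 (554). Proteasome genes had 4 of 6, with Rpn10, the ubiquitin receptor, at 658. Translation factor genes had 8 of 13, with eIF2A at 534, and aminoacyl-tRNA synthetase genes had 6 of 10, led by beta-PheRS (984), whose Motif 1 gap is printed above. RNA polymerase, TAF and Mediator genes had 12 of 17, led by TfIIA-S (1036), Polr2F (912) and MED4 (876). The match by symbol for that list also took in TfIIA-S, which encodes a part of the general transcription factor TFIIA. Over all genes of a list, tandem or not, mitochondrial ribosomal proteins had 60 of 73, oxidative phosphorylation 56 of 90 and proteasome 28 of 48. Translation factors had 38 of 53, synthetases 26 of 35 and RNA polymerase, TAF and Mediator 63 of 80. Of these 6 lists, only oxidative phosphorylation and proteasome had a tandem share above that of the whole list. The lists of splicing factors and of INO80, Tip60, Brahma and ISWI subunits held 2 tandem genes each, too few to set beside the share of all tandem genes. Splicing factor genes had 1 of 2, LSm3 (244), against 28 of 31 in all. The 2 tandem genes among INO80, Tip60, Brahma and ISWI subunits had none, against 25 of 29 in all. Replication-dependent histone genes, which are repeated and used by dividing cells, were below the share of all tandem genes with 0 of 6, against 1 of 112 in all.

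Families of genes used in few tissues seldom or never had a peak. The count was 0 of 57 for chemoreceptors, 0 of 30 for accessory gland and testis proteins, 0 of 20 for cuticle proteins, 0 of 15 each for odorant-binding proteins and serine proteases and 0 of 14 for immune effectors. It was also 0 of 8 for mucins, 0 of 7 for eggshell proteins and 0 of 4 for the Osiris genes. Cytochrome P450 genes had 1 of 29, Cyp6u1, whose peak lay nearer to the TSS of Ufsp1. UDP-glycosyltransferase genes had 1 of 16, Ugt305A1 (208). Glutathione S-transferase genes had 3 of 23, GstE13 (2396), GstE12 (295) and GstO3 (196), and none of these stands behind another member of its family. No gene of the Enhancer of split complex was tandem by the definition used. Over all genes of a list, tandem or not, a peak was at 5 of 179 chemoreceptors, 3 of 65 accessory gland and testis proteins and 1 of 122 cuticle proteins. Many of these families are duplicated: the upstream gene was a paralog for 35 of the 57 chemoreceptors, 17 of the 23 glutathione S-transferases and 15 of the 29 cytochrome P450 genes, and its part in the counts was not tested.

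Gene structure is given as a description. Tandem genes with a peak had a median length of 3085.5 bp and 5.45% of them had a single exon. Those without had a median length of 1684 bp and 16.6% had a single exon.

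Motif matches were counted in windows reaching 50 bp to each side, and the shares are descriptions with no test. Around the TSS of tandem genes the elements of broadly used promoters were commoner where there was a peak. Motif 1 was found at 14.2% of the 1138 genes with a peak, against 2.37% of the 2407 without and 5.59% of all protein-coding TSSs. The DRE was found at 10.9%, against 2.53% and 5.56%. Motif 7 was at 11.6% against 4.03%, Motif 6 at 8.79% against 3.12%, the E-box at 14.2% against 8.10%, and the BEAF core at 39.5% against 18.8%. TATA letters went the other way, with 8.61% at genes with a peak, against 19.8% without and 17.0% of all, and so did the Initiator, with 22.0% against 36.4%. GAGA (1.23% against 0.748%), Pho (18.3% against 19%) and the poly(A) signal (18.2% against 15.5%) differed little. The mean G+C content of the windows was 43.8% with a peak and 42.6% without.

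**Figure D5:**
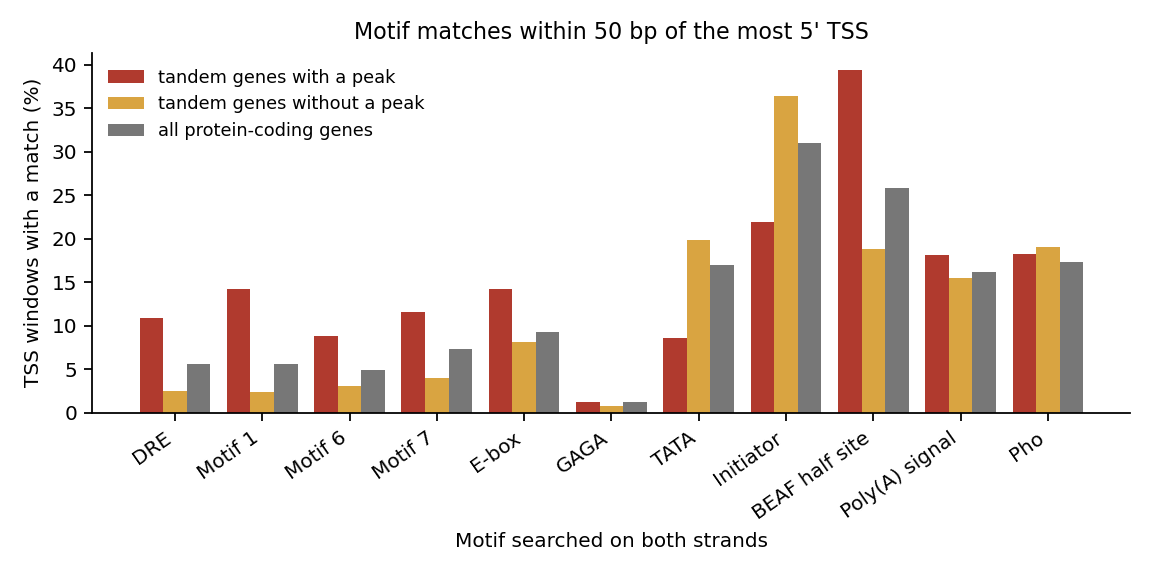
Share of windows within 50 bp of the most 5' TSS that hold each motif on either strand (percent), for tandem genes with a peak (red), tandem genes without a peak (yellow) and all protein-coding genes (grey). Motif 1 is at 14.2% of tandem genes with a peak and 2.37% of those without, and TATA letters are at 8.61% and 19.8%.

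Around the summits themselves most of these elements were found at a higher share of tandem than of isolated peaks, with no test of the difference. The DRE was within 50 bp of 8.01% of member summits, 6.15% of divergent, 4.0% of isolated and 3.59% of all IDR summits. Motif 1 was near 8.08%, 5.12%, 4.21% and 3.31% of them in that order. The E-box was near 8.85% of member, 6.40% of divergent and 4.52% of isolated summits. Motif 7 was near 8.47%, 7.39% and 3.89% in that order, and the BEAF core near 34.3%, 30.7% and 24.2%. Motif 6 was near 7.54% of member, 6.58% of divergent and 6.73% of isolated summits, which is nearly equal. TATA letters were near 14.3% of member, 18.7% of divergent and 18.5% of isolated summits. Member windows held 40.1% G+C on average and isolated ones 36.9%. Member summits lay nearer to the TSS than isolated ones, as given above, and the part of this in these shares was not tested. A match says only that the letters are present, and no factor was measured here.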

How the data were processed

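ChIP-seq of CG12659-GFP in whole embryos gave 3 replicate region lists, a pooled list and an IDR set on dm6. Column 7 of each holds the signal of the peak caller and column 9 a −log10 q-value, both as the authors deposited them. The q-value column was not used to test or rank. The sources used here do not give the aligner, caller, IDR threshold or treatment of multiply mapped reads, and lists on dm3 were not used. The replicate lists hold 30000, 30000 and 28466 regions, which are not depths, and replicates 1 and 2 share 616 identical regions, other pairs 0.

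Genes came from Ensembl release 115 on 6 chromosome arms (13945 protein-coding of 18164). A peak was assigned by its summit. Logistic fits (presence of a peak, summit position) and linear fits (log2 signal) ran across all genes, peaks or tandem pairs with class and arm as terms, and p-values were adjusted together over 10 contrasts at 0.05. Differences were also tested over replicates by an exact sign-flip permutation test. A region counted as found in a replicate when it overlapped a region there by 50% of the shorter. Proteins were aligned with blastp 2.17.0, figures drawn with matplotlib 3.10.9, and tables and fits made with pandas 2.3.3, numpy 2.4.6 and scipy 1.17.1 in Python 3.11.15, and the fits were checked on simulated data.

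The members, gene lists and motifs were chosen with earlier results of these data known. Genes named are the 20 strongest members found in all replicates (1 per merged stretch), the 5 weakest, the 5 at the shortest distance, the 5 strongest in the upstream gene and the 5 strongest behind a paralog. Up to 3 strongest members per gene list and the members at each limit were also named. Runs, the other ribosomal protein genes, RpL37-2, Cyp6u1 and the gaps with Motif 1, a DRE or no peak were chosen after their values were seen. The contrast of summits within 100 bp and the alternatives without paralogous pairs or without pairs sharing a peak were also chosen after values were seen. Gaps on arm 2R were not printed, and the first 8 printed gaps follow a rule of length and signal. Other alternatives changed the distance limits, the IDR subset, the regions per stretch, the arm term, the motif window and the replicates included.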

Additional observations from a re-analysis of the deposited data

How the results depend on the processing

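Of 154 alternative values of the counts and contrasts, 143 counted as unchanged. For 11 of these, numbers of members, this meant only that the ratio to the main number stayed within a set limit. The others kept their direction and their side of the threshold. The contrasts of tandem genes with isolated and divergent genes, of pairs by the upstream peak, of paralogs, of signal against divergent peaks and of summits within 100 bp kept both under every alternative run. The signal difference to isolated peaks (log2) was -0.153 in the stronger part of the IDR peaks and -0.0795 with a distance limit of 500 bp, both now past the threshold. It was 0.00491 with the TSS within 200 bp, and it ranged from -0.129 to -0.0272 when a replicate was left out, past the threshold only without replicate 1. The number of members was 684 in the stronger part of the IDR peaks. The log odds of a summit upstream of the TSS were 0.169 with the TSS within 200 bp, -0.0721 with a distance limit of 2000 bp, -0.181 with 1 region per stretch and -0.152 without an arm term, none of them past the threshold. The log odds per doubling of the distance were -0.0203 with a limit of 2000 bp. The log odds of being among the highest regions of all 3 replicates ranged from 0.0955 to 0.381 when a replicate was left out, and it was past the threshold without replicate 3. The cause of these changes was not tested.

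Motif shares near summits moved with the window, the DRE with 4.0% at 25 bp and 13.3% at 100 bp. Sets without a replicate held 7530, 7509 and 7771 regions, and the IDR step was not repeated for them. No paired analysis was possible because all samples belong to 1 group, so no groups of samples could be paired; gene classes were compared within each replicate. The files give no read counts, so the precision of single regions is unknown, and the control alignment was not analysed here.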
